A study of Mus musculus with 12 samples.

Results

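Enpep, Alpl, Vat1l, Gldc and Cplx2 are 5 of the 21885 genes in the deposited table. They were picked from the measured values, for high levels in pro-B cells with intact Pax5 and large falls in Pax5-deficient progenitors or in leukaemia, and no numeric limit was set. Their differences from the pro-B cells are therefore given as a description, without a test. All 5 had a row in the table.

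Expression was measured by RNA-seq in 12 mouse libraries, 4 in each of 3 groups, all made from cells purified by sorting. The P80R B-ALL libraries held GFP+ cells of B-cell acute lymphoblastic leukaemias with the PAX5 P80R mutation, a substitution in the DNA-binding paired domain, and came from primary recipients 1300, 1301, 1302 and 1308. The Pax5 KO libraries held CLP/pre-pro-B cells, early lymphoid progenitors, from Pax5-/- fetal liver. The Pax5 WT libraries held pro-B/pre-BI cells, which are committed B-cell precursors, from Pax5+/+ fetal liver. The design sets the leukaemia beside precursors without and with Pax5. Genotype, sorted stage and, for the leukaemias, origin in a recipient and not in fetal liver cannot be told apart in any comparison. The sources used here do not say whether the leukaemia cells also carried endogenous Pax5 alleles, or whether the Pax5 KO and Pax5 WT libraries came from separate embryos. P-values therefore measure the spread between libraries, which may be technical within the fetal liver groups.

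Pax5 is the transcription factor that commits lymphoid progenitors to the B lineage. It activates B-cell genes and represses genes of other lineages. The 5 genes encode proteins of unrelated kinds. Enpep encodes glutamyl aminopeptidase, the BP-1 or 6C3 surface antigen used to stage mouse B-cell precursors, a membrane enzyme that removes acidic residues from peptides such as angiotensin II. Alpl encodes tissue-nonspecific alkaline phosphatase, a membrane-anchored enzyme best known from bone mineralisation and from neutrophils. Vat1l encodes a relative of the vesicle amine transport protein Vat1 in the medium-chain reductase family, and its role in B cells is little known. Gldc encodes glycine decarboxylase, the enzyme that opens the mitochondrial glycine cleavage reaction and feeds one-carbon metabolism. Cplx2 encodes complexin 2, a small protein that binds SNARE complexes and regulates their fusion of vesicles with the plasma membrane.

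The promoter windows of the 5 genes are shown because genes chosen for a common pattern may be compared for what their starts share, which the choice did not use. Each window is the RefSeq sequence from 250 bases before to 50 bases after an annotated start, on the gene's strand, in build GRCm38.p6. The expression values were made on another build, mm39. The windows lie at chr3:129332700-129332999 (minus strand) for Enpep, chr4:137796335-137796634 (minus) for the upstream start of Alpl, chr8:114205390-114205689 (plus) for Vat1l, chr19:30175392-30175691 (minus) for Gldc and chr13:54302306-54302605 (plus) for Cplx2. Capitals mark matches, on either strand, to any of 7 motifs.
Enpep: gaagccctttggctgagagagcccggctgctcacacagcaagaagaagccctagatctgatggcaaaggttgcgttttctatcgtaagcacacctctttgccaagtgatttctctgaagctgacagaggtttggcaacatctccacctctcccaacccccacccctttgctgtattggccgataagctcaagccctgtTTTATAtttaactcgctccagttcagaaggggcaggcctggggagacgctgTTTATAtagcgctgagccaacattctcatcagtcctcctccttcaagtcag
Alpl: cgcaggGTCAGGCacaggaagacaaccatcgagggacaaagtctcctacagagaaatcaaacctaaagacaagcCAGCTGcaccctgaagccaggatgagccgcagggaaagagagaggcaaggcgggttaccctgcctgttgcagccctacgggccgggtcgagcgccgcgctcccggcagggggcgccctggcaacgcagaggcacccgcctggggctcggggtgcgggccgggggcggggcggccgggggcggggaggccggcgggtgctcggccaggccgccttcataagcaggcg
Vat1l: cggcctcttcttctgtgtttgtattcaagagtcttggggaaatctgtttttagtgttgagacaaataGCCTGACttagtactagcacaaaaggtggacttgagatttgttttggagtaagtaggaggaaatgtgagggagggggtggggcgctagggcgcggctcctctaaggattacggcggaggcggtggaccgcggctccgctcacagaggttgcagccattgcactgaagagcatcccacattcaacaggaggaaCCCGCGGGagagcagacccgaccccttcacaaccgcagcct
Gldc: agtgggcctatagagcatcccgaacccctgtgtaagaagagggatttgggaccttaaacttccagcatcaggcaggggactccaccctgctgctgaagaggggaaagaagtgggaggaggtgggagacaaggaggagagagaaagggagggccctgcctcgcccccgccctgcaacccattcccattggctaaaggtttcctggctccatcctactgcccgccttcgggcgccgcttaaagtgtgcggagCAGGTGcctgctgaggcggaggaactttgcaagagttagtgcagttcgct
Cplx2: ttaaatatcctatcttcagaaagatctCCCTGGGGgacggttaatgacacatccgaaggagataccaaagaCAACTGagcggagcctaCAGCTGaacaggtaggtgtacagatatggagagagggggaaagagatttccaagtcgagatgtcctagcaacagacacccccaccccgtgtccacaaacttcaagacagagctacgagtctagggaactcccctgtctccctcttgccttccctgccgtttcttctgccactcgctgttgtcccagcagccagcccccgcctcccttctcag

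No motif was found in the windows of all 5 genes. The EBF motif CCCNNGGG lay in the windows of Vat1l, at position 10 from the start, and Cplx2, at position -223, and in 13.7% of all 32851 mouse promoter windows. The Pax5 core GCNTGAC lay in the upstream window of Alpl and in the window of Vat1l, and in 10.7% of all windows. The E-protein motif CANCTG, found in 51.4% of all windows, lay in those of Alpl, Gldc and Cplx2. TTTATA, the reverse strand of the TATA motif TATAAA, stood at 2 places in the window of Enpep, and 13.6% of all windows held that motif. A second annotated start of Alpl, at chr4:137766426-137766725 (minus), held 2 E-protein motifs and 1 TATA motif, and gene-level values do not show which start was used. The motifs of RUNX (TGTGGT), FOXO (GTAAACA) and ETS factors (CGGAAG), in 16.8%, 3.65% and 16.9% of all windows, were in none of the 6 windows examined. A match describes the letters in the window and is not a measured binding site. GC content was 70% at the upstream start of Alpl, at percentile 90.4 of all windows, and between 51.3% and 59% in the other windows, against a median of 52.7%.

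Depth was 24914250 to 29386256 reads per library in P80R B-ALL, 36871775 to 43513852 in Pax5 KO and 33191950 to 39465256 in Pax5 WT. Levels are scaled read counts, that is reads multiplied by 1 factor per library that the authors chose. The leukaemias varied among themselves more than the fetal liver cells did, with a median SD of log2 levels over genes of 0.47 in P80R B-ALL, 0.11 in Pax5 KO and 0.16 in Pax5 WT. Pax5 itself stood at 847, 1146, 1316 and 255 in recipients 1300, 1301, 1302 and 1308, between 229.9 and 267 in Pax5 KO and between 6194 and 7315 in Pax5 WT. All 12 markers of pro-B and pre-BI cells were detected in each group, and they summed to 3107 to 6794 CPM (reads scaled to a common library total) in P80R B-ALL, 1775 to 1898 CPM in Pax5 KO and 7560 to 8651 CPM in Pax5 WT.

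Enpep was the most abundant of the 5 genes in Pax5 WT and nearly absent elsewhere. Its level was 0, 8.61, 0 and 31.8 in recipients 1300, 1301, 1302 and 1308, from 0, 7, 0 and 23 reads. The Pax5 KO libraries had 9.14, 0, 0 and 0, the single value resting on 12 reads. The Pax5 WT libraries had 19318, 19611, 19071 and 18275. Every leukaemia and every knockout library lay far below every Pax5 WT library, and the leukaemia and knockout values overlapped. The mean was 1886-fold lower in P80R B-ALL than in Pax5 WT (95% counting interval 1321 to 2795) and 8349-fold lower in Pax5 KO (4780 to 16158). These intervals cover counting error only, and a library with 0 reads allows up to 3 reads, which is at most 0.0207% of the Pax5 WT mean for Enpep. Without recipient 1308 the leukaemia mean was 2.87 ± 4.97 (SD, n = 3), against 10.1 ± 15.0 (SD, n = 4) with it. In bulk libraries, fewer cells that express a gene and less RNA of it per cell cannot be told apart. Of all genes tested, which are those that reached a value of 10 in at least 4 of the 8 libraries compared, 20.2% had every leukaemia below every Pax5 WT library and 21.3% above, and 27.9% had every knockout library below every Pax5 WT library and 32.9% above. All 5 genes were below in both, which their choice fixed.

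Alpl had the same 2 low groups, but 1 leukaemia stood apart. Recipients 1300, 1301, 1302 and 1308 had 19.7, 6.15, 2.48 and 202, and the last value came from 146 reads. The Pax5 KO libraries had 1.52, 1.64, 0 and 0, a total of 4 reads in the group. The Pax5 WT libraries had 8571, 8435, 8783 and 7635. In scaled levels, all 4 leukaemias were above all 4 knockout libraries, recipient 1301 by a few reads, and all were below Pax5 WT. Recipient 1302 had as many reads as Pax5 KO libraries 1 and 2 and was above them only through the scaling factor. The mean was 145-fold lower in P80R B-ALL than in Pax5 WT (counting interval 125 to 170) and 10557-fold lower in Pax5 KO (4123 to 38745). Without recipient 1308 the leukaemia mean was 9.45 ± 9.08 (SD, n = 3), against 57.6 ± 96.6 (SD, n = 4) with it.

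Vat1l differed from Enpep and Alpl in that the knockout kept part of its expression. Its level was 0, 2.46, 7.44 and 0 in recipients 1300, 1301, 1302 and 1308, a total of 8 reads. The Pax5 KO libraries had 403, 356, 321 and 337. The Pax5 WT libraries had 3511, 3382, 3384 and 2844. The 3 groups did not overlap and stood in the order P80R B-ALL, Pax5 KO, Pax5 WT from low to high. Pax5 KO retained 10.8% of the Pax5 WT mean, so that the gene was reduced there and not lost, and P80R B-ALL retained 0.0755%. The mean was 1325-fold lower in P80R B-ALL than in Pax5 WT (counting interval 672 to 3068) and 9.26-fold lower in Pax5 KO (8.84 to 9.70). Without recipient 1302 the leukaemia mean was 0.820 ± 1.42 (SD, n = 3), against 2.48 ± 3.51 (SD, n = 4) with it.

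Gldc showed the same order at lower levels. Its level was 2.63, 0, 2.48 and 2.77 in recipients 1300, 1301, 1302 and 1308, from 2, 0, 2 and 2 reads. The Pax5 KO libraries had 34.3, 27.9, 25.7 and 19.5, from 27 to 45 reads each. The Pax5 WT libraries had 3206, 3193, 2996 and 2592. The 3 groups again did not overlap. The mean was 1522-fold lower in P80R B-ALL than in Pax5 WT (counting interval 699 to 4146) and 112-fold lower in Pax5 KO (94.3 to 133).

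Of Cplx2 the leukaemias kept 1.06% of the Pax5 WT mean on average, with a wide spread between recipients. Recipients 1300, 1301, 1302 and 1308 had 27.6, 82.5, 127 and 5.54, from 21, 67, 102 and 4 reads. The Pax5 KO libraries had 9.90, 6.57, 9.43 and 2.17. The Pax5 WT libraries had 5459, 5762, 6007 and 5534. Recipient 1308 fell within the knockout range while the other 3 leukaemias were above it, and both groups were far below Pax5 WT. The mean was 94.0-fold lower in P80R B-ALL than in Pax5 WT (counting interval 81.7 to 109) and 811-fold lower in Pax5 KO (583 to 1164). Without recipient 1302 the leukaemia mean was 38.5 ± 39.6 (SD, n = 3), against 60.5 ± 54.6 (SD, n = 4) with it.

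**Figure D1:**
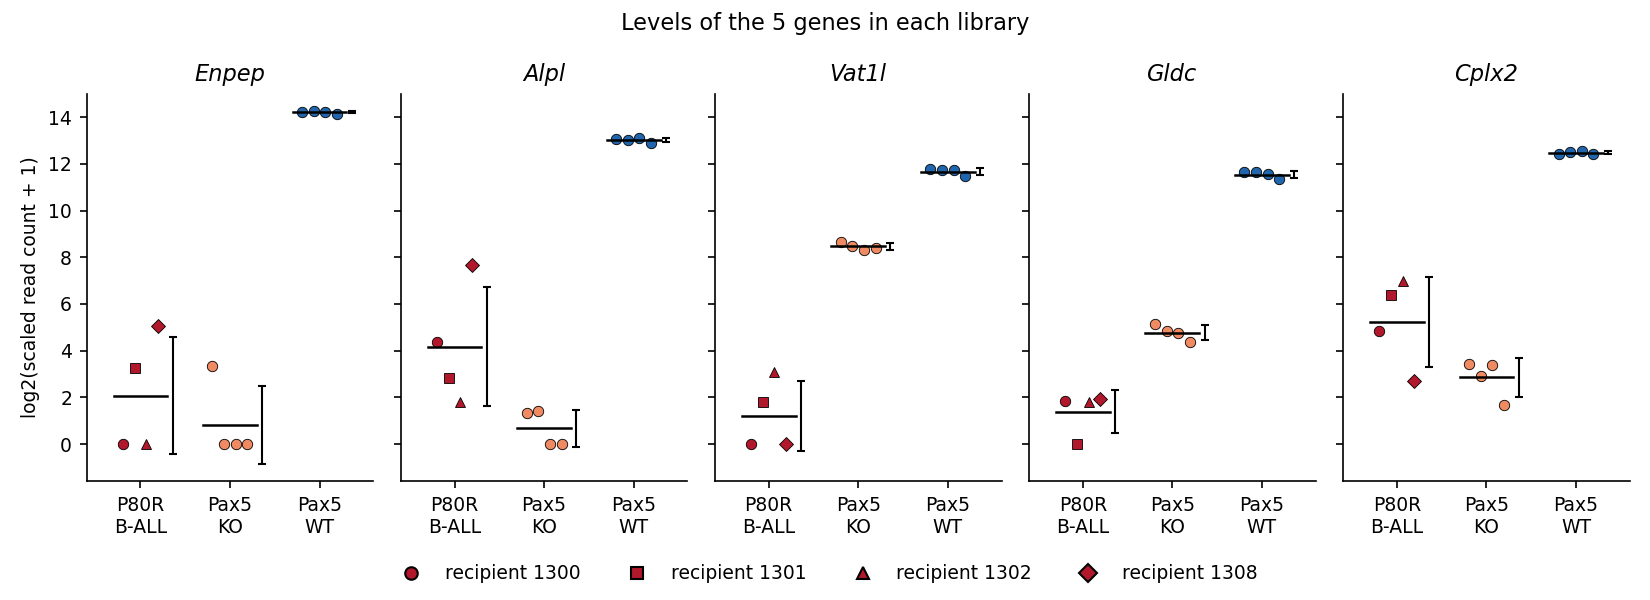
Levels of Enpep, Alpl, Vat1l, Gldc and Cplx2 as log2 of the scaled read count plus 1, one point per library in P80R B-ALL, Pax5 KO and Pax5 WT, with the group mean as a line and the SD of the 4 log2 values as a bar beside it. All 5 genes are high in the 4 Pax5 WT libraries, Vat1l and Gldc are lower in the leukaemias than in the knockout, and Alpl is highest among the leukaemias in recipient 1308.

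Per kilobase of exon, the scale on which genes can be compared, the mean Pax5 WT levels were 4052 for Enpep, 2072 for Alpl, 1155 for Cplx2, 601 for Vat1l and 492 for Gldc. Enpep stood at percentile 96.5 of the 14122 genes above 0 in Pax5 WT, and Gldc, the lowest of the 5, at percentile 74.5. In P80R B-ALL the order was another, with Alpl at 14.3 and Cplx2 at 12.3 per kilobase, Enpep at 2.15, Vat1l at 0.453 and Gldc at 0.323. The leukaemia values of Alpl and Cplx2 overlap between recipients, so their order is not settled, and the same holds for Vat1l and Gldc at 8 and 6 reads. In Pax5 KO, Vat1l led at 64.9 per kilobase, followed by Gldc at 4.41, Cplx2 at 1.42, Enpep at 0.485 and Alpl at 0.196. The lowest 2 of these rest on 12 and 4 reads. The spread within Pax5 WT was small, with a coefficient of variation from 3.01% for Enpep to 9.55% for Gldc, and Pax5 WT library 4 was the lowest of its group for each gene but Cplx2. The genes were chosen for large falls, so their ranks only describe the choice. By the difference of mean log2 levels, Enpep had the largest fall of all tested genes in both comparisons with Pax5 WT. Vat1l ranked 2nd in P80R B-ALL but 212th in Pax5 KO. Near 0 reads these ranks depend on the measure. By the ratio of means, Alpl fell more than Enpep in Pax5 KO, 10557-fold against 8349-fold. In P80R B-ALL, Gldc fell more than Vat1l by that ratio, 1522-fold against 1325-fold.

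**Figure D2:**
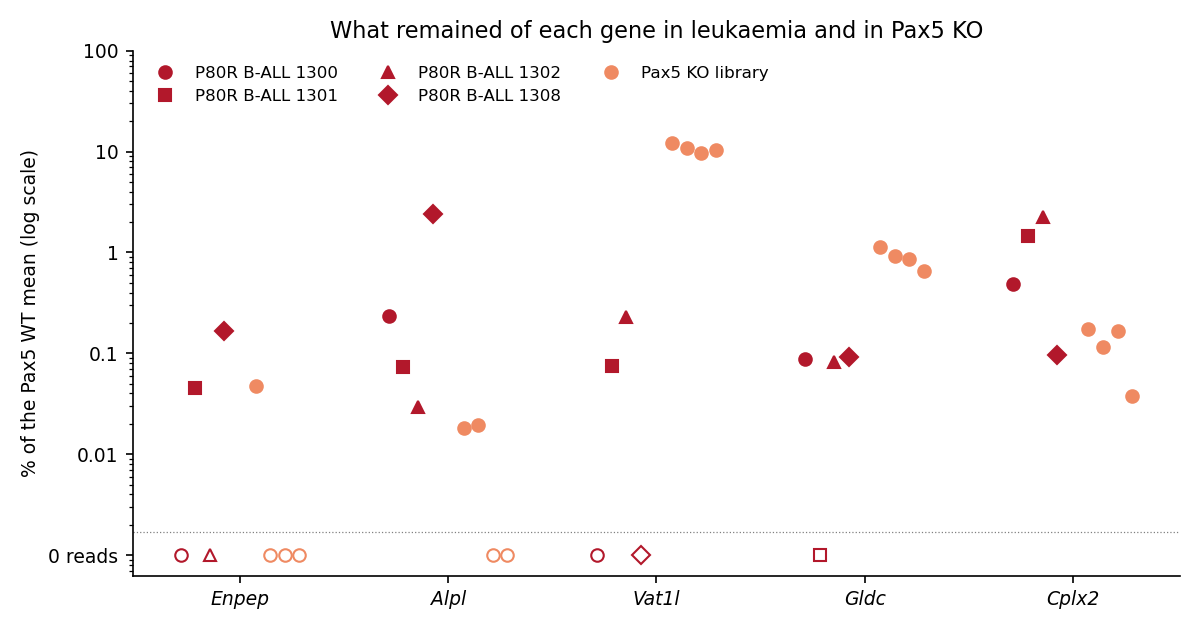
Level of each gene in each P80R B-ALL and Pax5 KO library as a percentage of the Pax5 WT mean, on a log axis, with libraries at 0 reads as open symbols on the bottom line. Vat1l sits near 10% in the knockout libraries, Gldc near 1%, and the leukaemias reach 2.42% for Alpl in recipient 1308 and 2.22% for Cplx2 in recipient 1302.

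The leukaemias were below the knockout in Vat1l and Gldc. The low leukaemia and knockout values had helped to choose the genes, so these differences too are a description, with no test. The log2 difference of P80R B-ALL minus Pax5 KO was -7.25 for Vat1l and -3.38 for Gldc, and each was lower in 4 of 4 leukaemias than in every knockout library. Both genes passed the filter on low values only through the knockout group, where they are higher, so 2 of 2 says nothing about the 5. Over all 11914 genes tested, 21.2% were called lower (limma, adjusted p of at most 0.05) and 17.9% higher, 39.0% in all, and 23.3% had every leukaemia below every knockout library.

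Enpep, Alpl and Cplx2 lay under the filter in this comparison. In scaled levels, all 4 leukaemias were above the knockout for Alpl, a position shared by 19.7% of the genes tested, and Enpep and Cplx2 overlapped. For Alpl in recipient 1302 that position came from the scaling factor alone. The log2 difference of P80R B-ALL minus Pax5 KO was 1.24 for Enpep, 3.48 for Alpl and 2.38 for Cplx2. Without recipient 1308, which had the least Cplx2, the difference for Cplx2 was 3.22. The deposited scaling set the median of all genes at -0.12 in this comparison, where 2127 genes were higher and 2525 lower. With TMM scaling alone changed, the median was -0.04 and 2342 genes were higher and 2151 lower. With edgeR and DESeq2 on recovered reads, which change the test as well as the scaling, the median was 0.06 and 0.07, and the split was 2499 higher and 1819 lower with edgeR and 2903 higher and 2173 lower with DESeq2.

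Within the leukaemias, the order of recipients for Cplx2 was 1302, 1301, 1300 and 1308 from high to low, and Pax5 and Ebf1 had that same order. Ebf1, a B-lineage transcription factor, stood at 11594, 7632, 6436 and 2333 in those recipients. A set of 4 libraries is too few for a correlation. Pax5 was higher in P80R B-ALL than in Pax5 KO by a log2 difference of 1.58 ± 0.46 (SE; limma, adjusted p = 0.0252), a call lost without recipient 1300, 1301 or 1302 and without any 1 of the 4 Pax5 KO libraries (adjusted p up to 0.0661). Reads of the mutant and of any endogenous Pax5 were not separated.

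Alpl and Enpep were both highest in recipient 1308, and so were summed markers of several other cell types. The 8 stromal and osteoblast markers summed to 53.0, 46.8, 28.8 and 358 CPM in recipients 1300, 1301, 1302 and 1308, to between 63.7 and 83.5 CPM in Pax5 KO and to between 0 and 0.342 CPM in Pax5 WT. Most of the sum in recipient 1308 and in Pax5 KO was Runx2, which lymphoid progenitors and plasmacytoid cells also express. Of the more defining markers, Col1a1 (type I collagen) stood at 383, 571, 250.6 and 1417 in the 4 recipients and Ibsp (bone sialoprotein) at 339, 345, 283 and 888, and all 8 markers had reads in P80R B-ALL. Dcn, Bglap and Ibsp were at 0 in every Pax5 KO library. Sp7, on the same list, went the other way, with a mean of 16.5 in P80R B-ALL, 76.5 in Pax5 KO and 0 in Pax5 WT. Myeloid markers summed to 681, 157, 146 and 940 CPM, erythroid markers to 2579, 212, 171 and 5227 CPM, and plasmacytoid dendritic markers to 518, 278, 386 and 2376 CPM in the same recipients. T and NK markers reached 448 CPM in recipient 1308. In Pax5 KO the sums were 300 to 326 CPM for myeloid and 314 to 352 CPM for plasmacytoid dendritic markers. They were 156 to 178 CPM for T and NK and 5.40 to 7.13 CPM for erythroid markers. Pax5 WT had 16.9 to 23.8, 255 to 282, 1.65 to 1.96 and 2.91 to 5.30 CPM in that order. Against Pax5 KO, limma called Mpo and Prtn3 lower and Lyz2 higher in P80R B-ALL, while Elane and Csf1r did not pass. The part of other cell types in the leukaemia values of Alpl and Enpep was not tested. Cplx2 was instead lowest in recipient 1308, and the pro-B and pre-BI markers were lowest there, at 3107 CPM against 4496 to 6794 CPM in the other recipients.

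**Figure D3:**
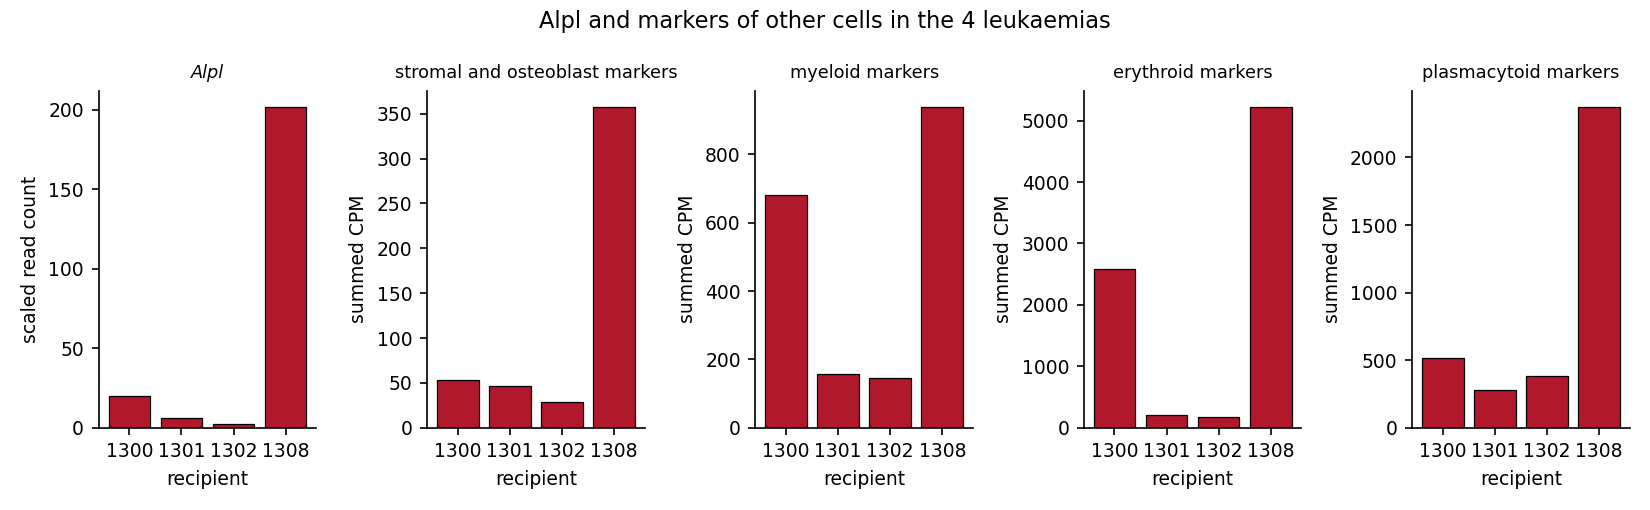
Alpl, as scaled read count, beside the summed CPM of 4 marker lists in the leukaemias of recipients 1300, 1301, 1302 and 1308, one bar per library. Recipient 1308 is highest in all 5 panels, with Alpl at 202 and stromal and osteoblast markers at 358 CPM, and recipient 1300 is second in each.

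Over the 12 libraries, each gene was set beside 12200 others by the Pearson correlation of log2 levels, a description in which the 3 groups supply most of the variation. Gldc was most like Elovl6 (r = 0.99), a fatty acid elongase, Tcf3 (r = 0.99), the E protein gene, and Tomm34 (r = 0.98), a mitochondrial import co-chaperone. Cplx2 was most like Edaradd (r = 0.99), an adaptor of the ectodysplasin receptor, then Pax5 (r = 0.99) and Ap1ar (r = 0.99). Edaradd stood at 92.5 ± 78.1 in P80R B-ALL, 11.0 ± 2.37 in Pax5 KO and 1689.9 ± 55.7 in Pax5 WT (SD, n = 4 each). Alpl was most like Gm266 (r = 0.99), at 4.39 ± 5.51 in P80R B-ALL, 0 in Pax5 KO and 548 ± 36.3 in Pax5 WT, then Ap2s1 (r = 0.99) and Slc25a51 (r = 0.98). Enpep was most like Asf1b, a histone chaperone, Bves and Pde9a, a phosphodiesterase (r = 0.98 each), and Vat1l like Nono, Nup62 and Men1 (r = 0.99 each), which are RNA-binding, nuclear pore and chromatin proteins. Genes with a far smaller range reached these correlations. Nono stood at 14654 ± 1518 in P80R B-ALL, 22200.4 ± 962 in Pax5 KO and 26429 ± 474 in Pax5 WT. Among the 5 genes themselves r ran from 0.47, for Alpl with Vat1l, to 0.96, for Alpl with Enpep. Positive values among them follow from their choice, which used the same 12 libraries.

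The nearest protein-coding genes on each side show whether whole stretches of chromosome were low. Of 20 neighbours, taken in the order of an older annotation, 13 were tested in each comparison. In P80R B-ALL against Pax5 WT, 3 of the 13 were higher and 5 lower, 61.5%, with 40.6% of all 11615 genes called. In Pax5 KO against Pax5 WT, 3 were higher and 6 lower, 69.2%, with 66.4% of all 11576 genes called, and 1 was higher without Pax5 KO library 1 or 4 or Pax5 WT library 3. These 2 comparisons share the 4 Pax5 WT libraries. The leukaemias had 3 higher and 3 lower than Pax5 KO, with 17.9% and 21.2% of all 11914 genes.

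Elovl6, next to Enpep, had the largest fall among the neighbours. It stood at 799, 669, 1542 and 1146 in recipients 1300, 1301, 1302 and 1308, at 2767, 2382, 2604 and 2439 in Pax5 KO and at 12348, 12404.5, 12636 and 11561 in Pax5 WT. The 3 groups did not overlap, in the same order as for Gldc. The log2 difference was -3.63 ± 0.24 for P80R B-ALL minus Pax5 WT (SE; limma, adjusted p = 1.49e-05), -2.26 ± 0.06 for Pax5 KO minus Pax5 WT (adjusted p = 1.26e-11) and -1.37 ± 0.25 for P80R B-ALL minus Pax5 KO (adjusted p = 0.00343). On the other side of Enpep, Fam241a rose in P80R B-ALL to 709.7 ± 356, against 169.7 ± 39.6 in Pax5 WT (SD, n = 4 each; limma, adjusted p = 0.0032).

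Around the other genes the neighbours went both ways. Usp48, a ubiquitin protease gene near Alpl, fell in P80R B-ALL to 1439 ± 273, against 3006 ± 116 in Pax5 WT (limma, adjusted p = 0.000682), while Ece1, on the other side, stood at 705 ± 399.8 in P80R B-ALL and 739 ± 125 in Pax5 WT and did not pass. Nudt7, a peroxisomal hydrolase gene beside Vat1l, rose in both, to 1232 ± 304 in P80R B-ALL and 546 ± 45.7 in Pax5 KO, against 345 ± 3.31 in Pax5 WT. Uhrf2 beside Gldc stood at 3732 ± 1537 in P80R B-ALL, 3560 ± 109 in Pax5 KO and 4595 ± 224 in Pax5 WT, and only the fall in Pax5 KO passed (limma, adjusted p = 0.000111), a call lost with all 12 libraries in the fit. Thoc3 and Sfxn1 near Cplx2 fell in both comparisons with Pax5 WT, with log2 differences of -0.91 and -0.61 in P80R B-ALL and of -0.73 and -0.40 in Pax5 KO.

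**Figure D4:**
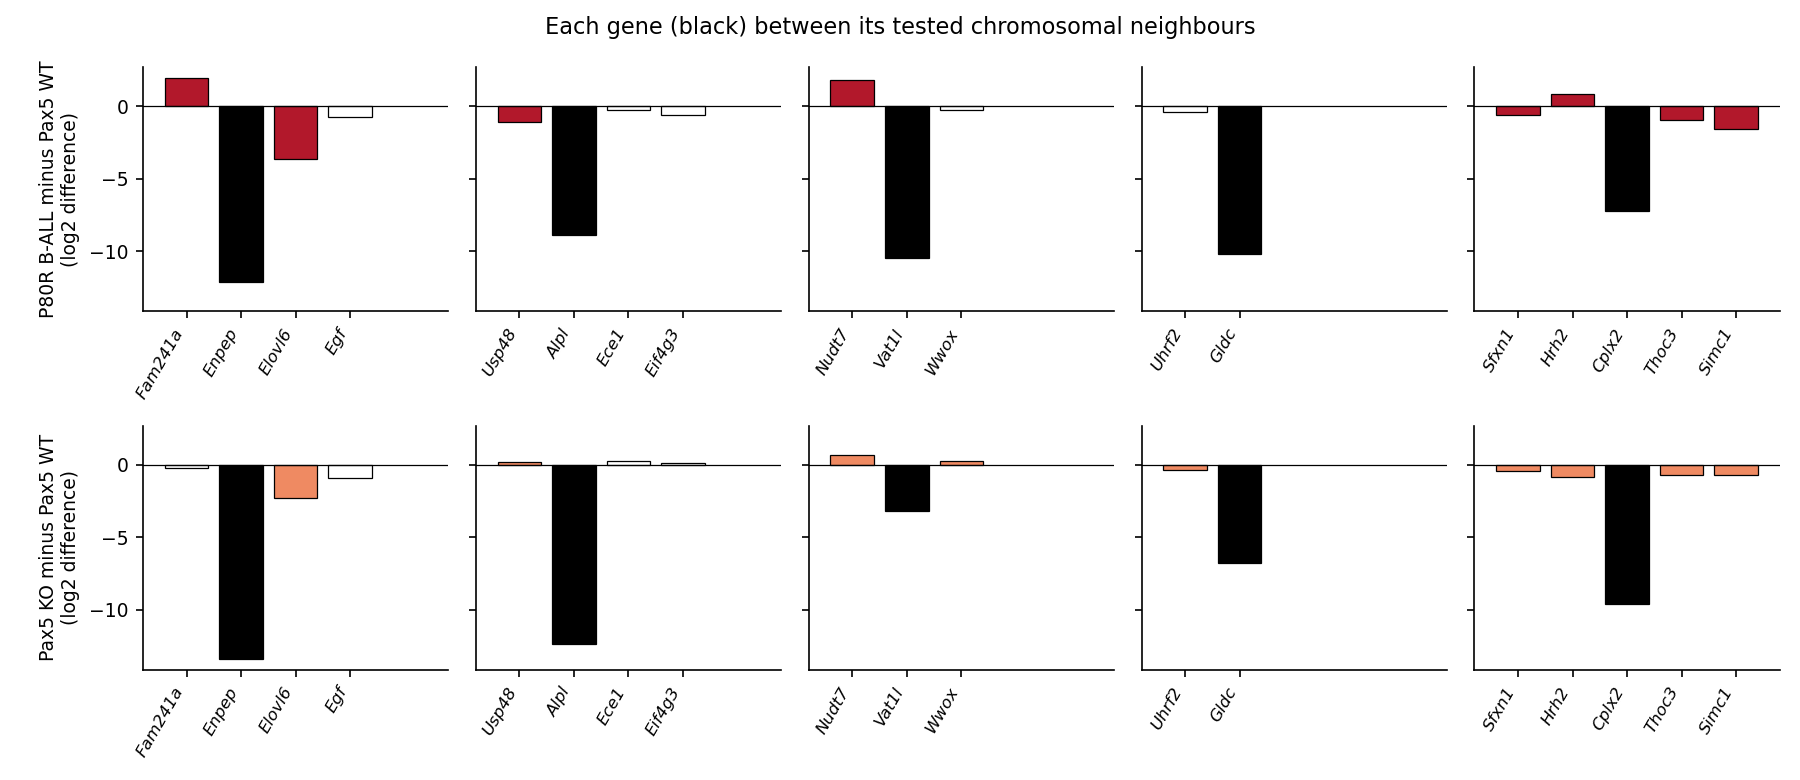
Fitted log2 differences of each gene (black bars) and those of its 2 nearest protein-coding neighbours per side that were tested, in chromosomal order, for P80R B-ALL minus Pax5 WT (top) and Pax5 KO minus Pax5 WT (bottom). Coloured bars passed an adjusted p of 0.05, and white bars did not. Elovl6 is the neighbour with the largest fall, at -3.63 and -2.26.

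The other genes of each protein's family or pathway, 91 in 5 lists of which 90 had a row, were compared in the same fits. In P80R B-ALL against Pax5 KO, 6 of 64 tested were higher and 9 lower, 23.4% against 39.0% of all genes. In P80R B-ALL against Pax5 WT, 11 of 63 were higher and 10 lower, 33.3% against 40.6% of all genes. In Pax5 KO against Pax5 WT, 27 of 63 were higher and 20 lower, 74.6% against 66.4% of all genes. Their median log2 difference was -0.06 for P80R B-ALL minus Pax5 KO, -0.06 for P80R B-ALL minus Pax5 WT and 0.06 for Pax5 KO minus Pax5 WT, against -0.12, -0.03 and 0.05 over all genes tested.

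Among aminopeptidases and genes of the angiotensin system, the group of Enpep, 1 of 8 tested was higher and 1 lower in P80R B-ALL than in Pax5 WT, and 4 of 10 were higher and 3 lower in Pax5 KO over Pax5 WT. Of all genes, 20.8% were higher and 19.8% lower in P80R B-ALL and 36.1% higher and 30.3% lower in Pax5 KO. The leukaemia count of higher genes was 3 without recipient 1302 or any 1 Pax5 WT library and 2 without recipient 1301, and that of lower genes was 2 without recipient 1308. Dpp4, a dipeptidyl peptidase of the cell surface, rose in P80R B-ALL to 19004 ± 8995, against 4750 ± 690 in Pax5 WT (log2 difference 1.88 ± 0.31 SE, limma, adjusted p = 0.00146). Npepps, the cytosolic puromycin-sensitive aminopeptidase, fell to 1091 ± 244 in P80R B-ALL, against 1781 ± 143 in Pax5 WT (limma, adjusted p = 0.00984). Anpep, the membrane aminopeptidase closest to Enpep in kind and a myeloid surface antigen, stood at 0 to 62.3 in P80R B-ALL and 13.7 to 25.7 in Pax5 KO, with 0 in every Pax5 WT library. Lvrn, another membrane aminopeptidase, stood at 0 to 47.3 in P80R B-ALL, 23.1 to 52.6 in Pax5 KO and 0 in every Pax5 WT library. Both reached the filter on low values only through Pax5 KO, which fixed their direction, so their rise over Pax5 WT is a description, with no test. Both are among the 4 higher genes of that comparison. Agt, the angiotensin precursor, had 9.92 to 214 in P80R B-ALL, 0 in Pax5 KO and 0 to 4.00 in Pax5 WT, while the receptor gene Agtr2 was at 0 in all 12 libraries.

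Set against Pax5 KO, 2 of 10 tested genes of that group were higher in P80R B-ALL and 1 was lower, with 17.9% and 21.2% over all genes. The count of higher genes was 4 without recipient 1302 or any 1 Pax5 KO library, and that of lower genes 2 without recipient 1300 or 1308. Dpp4 and Aopep, another aminopeptidase, rose by 1.52 ± 0.31 and 1.10 ± 0.29 (log2, SE; limma, adjusted p = 0.0059 and 0.0166), and Npepps fell by 0.84 on the log2 scale (limma, adjusted p = 0.00557).

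The phosphate, pyrophosphate and vitamin B6 genes, the group of Alpl, held 14 genes, of which 7 were tested in Pax5 KO against Pax5 WT. There 6 of the 7 were higher, or 3 with all 12 libraries in the fit, with 36.1% of all genes higher. Slc20a2, a phosphate transporter, did not pass (limma, adjusted p = 0.303), and 1 gene was lower without Pax5 WT library 4. Pdxk, the kinase that phosphorylates vitamin B6, stood at 1349.8 ± 78.8 in Pax5 KO, against 693 ± 38.2 in Pax5 WT (limma, adjusted p = 2.70e-07). Ank, a pyrophosphate and ATP exporter, stood at 161 ± 14.3 in Pax5 KO, against 39.8 ± 11.1 in Pax5 WT (limma, adjusted p = 6.22e-06, and 0.0645 with all 12 libraries in the fit). The other alkaline phosphatases, Alpi, Alppl2 and Akp3, were near or at 0 in all 12 libraries.

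The leukaemias had 2 of 8 of these genes higher than Pax5 WT, or 5 without recipient 1300, and 1 lower. Over all genes, 20.8% were higher and 19.8% lower. Enpp1, whose enzyme makes the pyrophosphate that alkaline phosphatase breaks down, stood at 154, 146, 155 and 425 in recipients 1300, 1301, 1302 and 1308, at 1.64 to 14.6 in Pax5 KO and at 0 to 12.0 in Pax5 WT. Every leukaemia was above every fetal liver library. The log2 difference was 5.29 ± 0.67 for P80R B-ALL minus Pax5 KO and 6.70 ± 0.91 for P80R B-ALL minus Pax5 WT (SE), and recipient 1308 was again the highest. Enpp1 reached the filter on low values only through the leukaemias, which fixed its direction, so both differences are a description, with no test. It is among the higher genes counted in both comparisons. Set against Pax5 KO, 1 of 8 was higher in P80R B-ALL and 3 were lower, with 17.9% and 21.2% over all genes. The higher count was 2 without recipient 1300, and the lower count was 1 without Pax5 KO library 1, 3 or 4. Among the lower ones was Slc20a2, at 475 ± 90.8 in P80R B-ALL and 759.7 ± 34.1 in Pax5 KO (limma, adjusted p = 0.0127).

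Of the 10 reductases related to Vat1l, 1 was higher and 2 lower in P80R B-ALL than in Pax5 WT, and 4 were higher and 3 lower in Pax5 KO over Pax5 WT, near the shares over all genes of 20.8% higher and 19.8% lower in P80R B-ALL and 36.1% higher and 30.3% lower in Pax5 KO. The leukaemia count of lower genes was 1 without recipient 1300 or 1302 or any 1 Pax5 WT library, and that of higher genes 3 without recipient 1308. Vat1, the closest relative, stood at 145 ± 89.9 in P80R B-ALL, 286 ± 24.9 in Pax5 KO and 119 ± 18.3 in Pax5 WT, a rise in Pax5 KO over Pax5 WT of 1.26 ± 0.15 (log2, SE; limma, adjusted p = 1.01e-05), opposite in direction to Vat1l. Sord, sorbitol dehydrogenase, fell in both, to 809 ± 316 in P80R B-ALL and 1004 ± 56.0 in Pax5 KO, against 2714 ± 196 in Pax5 WT. Ptgr1, a prostaglandin and leukotriene reductase, fell to 988 ± 41.2 in Pax5 KO, against 8648 ± 667 in Pax5 WT (limma, adjusted p = 1.65e-12). Its leukaemia values ran from 57.9 to 5506, and its call against Pax5 WT was lost in 12 of 17 alternatives, among them edgeR, DESeq2 and leaving out recipient 1300 or 1302 or any 1 Pax5 WT library, with adjusted p up to 0.176. Against Pax5 KO, limma called 0 of the 10 in P80R B-ALL and 39.0% of all genes. There were 2 of the 10 at an unadjusted p under 0.05, and edgeR and DESeq2 on recovered reads called 1 each, Rtn4ip1. Without recipient 1308 limma called 1 higher and 1 lower, and without recipient 1300 1 lower.

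The glycine and one-carbon genes, the group of Gldc, had more members lower than higher in both comparisons with Pax5 WT. In P80R B-ALL, 5 of 16 tested were lower and 2 higher (19.8% and 20.8% of all genes), and in Pax5 KO, 8 of 15 were lower and 3 higher (30.3% and 36.1% of all genes). Leaving out Pax5 WT library 1, 2 or 4 left 3 lower genes in P80R B-ALL, and 4 were lower in Pax5 KO with all 12 libraries in the fit. Mthfd2, the mitochondrial folate enzyme, stood at 1568 ± 379.9 in P80R B-ALL and 2018 ± 95.03 in Pax5 KO, against 5052 ± 220.2 in Pax5 WT (log2 differences of -1.72 ± 0.17 and -1.32 ± 0.06 SE, limma, adjusted p = 0.000108 and 1.30e-09). Psat1, of serine synthesis, stood at 7425 ± 2174 in P80R B-ALL and 4898 ± 244 in Pax5 KO, against 11851 ± 764 in Pax5 WT, and its call in P80R B-ALL was lost without Pax5 WT library 1, 2 or 4 (limma, adjusted p up to 0.0594). Mthfs, which returns a stored folate to the cycle, went the other way, to 278 ± 113 in P80R B-ALL and 108 ± 10.0 in Pax5 KO, against 63.5 ± 8.58 in Pax5 WT.

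Gldc acts in a complex with Amt, Gcsh and Dld. Amt, its partner in the middle step, was itself near 0, at 9.84 to 25.0 in P80R B-ALL, 0.822 to 3.61 in Pax5 KO and 0 to 18.1 in Pax5 WT, while Dld, shared with other mitochondrial complexes, stood at 7904 ± 1813 in P80R B-ALL, 8540 ± 448 in Pax5 KO and 8197 ± 564 in Pax5 WT. Pax5 WT cells thus had high Gldc RNA beside almost no Amt RNA. Gcsh had a mean of 3761 in P80R B-ALL, 2956 in Pax5 KO and 3978 in Pax5 WT. Only its fall in Pax5 KO against Pax5 WT passed (limma, adjusted p = 6.97e-05). Set against Pax5 KO, 2 of 15 genes of the group were higher in P80R B-ALL, and 2 lower, with 17.9% and 21.2% over all genes. The higher count was 5 with edgeR, with DESeq2 and without recipient 1308, and 4 with TMM scaling. Tyms, thymidylate synthase, rose to 9801 ± 2445 in P80R B-ALL, against 3846 ± 88.8 in Pax5 KO (limma, adjusted p = 0.000795). The lower count was 0 with edgeR, with DESeq2, with TMM scaling, without recipient 1300 and without any 1 of the 4 Pax5 KO libraries.

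Among SNARE and exocytosis genes, the group of Cplx2, the general fusion machinery was present throughout. In Pax5 KO against Pax5 WT, 10 of 21 tested were higher and 6 lower, with 36.1% and 30.3% over all genes. In P80R B-ALL against Pax5 WT, 5 of 21 were higher and 1 lower, with 20.8% and 19.8% over all genes, or 2 lower without recipient 1308 and 0 without Pax5 WT library 3. Vamp3, a vesicle SNARE, stood at 5049 ± 860.4 in P80R B-ALL and 4990.3 ± 149 in Pax5 KO, against 2973 ± 216 in Pax5 WT (limma, adjusted p = 0.00366 and 5.16e-07). Snap23, its plasma membrane partner in non-neuronal cells, stood at 4014 ± 769.5 in P80R B-ALL and 2988 ± 242 in Pax5 KO, against 2237 ± 58.8 in Pax5 WT (limma, adjusted p = 0.00351 and 0.000158). Rab27a and Unc13d, which dock and prime secretory granules, rose in Pax5 KO to 1423 ± 177 and 1739.8 ± 53.0, against 548 ± 73.8 and 658 ± 148 in Pax5 WT.

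Of the complexins, Cplx2 was the one expressed. Cplx1 and Cplx3 were at 0 in all 12 libraries and Cplx4 reached 2.00 in 1 Pax5 WT library. Snap25, the neuronal partner of complexins, was also at 0 throughout. Set against Pax5 KO, 1 of 21 genes was higher in P80R B-ALL and 3 were lower, with 17.9% and 21.2% over all genes. Vamp8, a SNARE of granule and endosome fusion, rose to 8553 ± 3761 in P80R B-ALL, against 3697 ± 167 in Pax5 KO (limma, adjusted p = 0.0109). The count of higher genes was 3 with edgeR and 6 with DESeq2, 3 without recipient 1300 or 1301 and 2 without recipient 1302. That of lower genes was 1 with edgeR, with DESeq2 and without recipient 1300 or 1301 or Pax5 KO library 2, 0 without Pax5 KO library 1, 3 or 4, and 6 without recipient 1308.

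**Figure D5:**
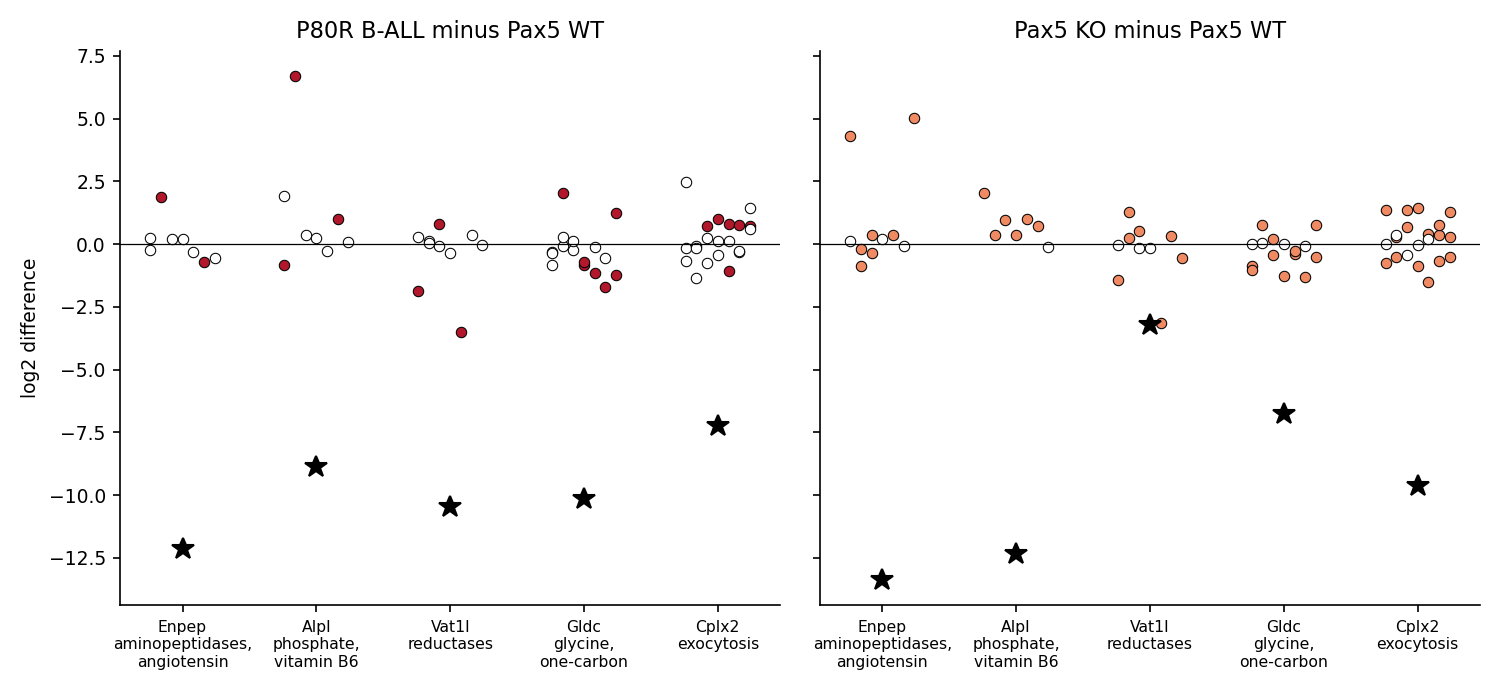
Fitted log2 differences of the tested genes in the 5 family and pathway lists, for P80R B-ALL minus Pax5 WT (left) and Pax5 KO minus Pax5 WT (right), with filled points past an adjusted p of 0.05 and open points not past it. Stars mark Enpep, Alpl, Vat1l, Gldc and Cplx2, chosen for their falls, and each star lies under its list. That of Vat1l in Pax5 KO, at -3.21, lies only just under Ptgr1, at -3.13.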

How the data were processed

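RNA-seq libraries of sorted mouse cells were prepared with SMART-Seq v4, per the labels' protocols, a chemistry that keeps no strand information. The submitters' processing notes list featureCounts, STAR 2.7.8a, fastp and the build mm39. The annotation used and the treatment of multi-mapping reads were not stated there. The deposited signal values are counts that the authors had scaled by 1 factor per library, since 100% of the values were whole multiples of a library's step within a tolerance of 0.001. Dividing by that step, 0.722 to 1.38 per read, gave back whole reads, used for depths, CPM and 95% Poisson counting intervals. Symbols matched 21780 of 21885 identifiers.

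A pseudocount of 1 was added before the log2 step, and groups were compared with limma 3.58.1 in R 4.3.3 (trend and robust, two-sided), on the 8 libraries of each pair of groups. A gene was tested where 4 or more of the 8 libraries reached a value of 10, and p was adjusted by Benjamini-Hochberg over all genes tested, with a threshold of 0.05. The scripts were tested on simulated data. Alternatives were edgeR 4.0.16 and DESeq2 1.42.0 on recovered reads, TMM scaling, pseudocounts, filters, all 12 libraries in 1 fit, and leaving out libraries. Where libraries were left out, a value of at least 10 was asked of as many libraries as the smaller group held.

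The 5 genes and the gene lists were chosen with earlier results of these data known. Genes named were the 5, the 3 most like each by correlation, up to 3 per list and comparison by smallest adjusted p, the closest relatives, the neighbours, Pax5 and Ebf1. Other list genes given outside that rule (Dld, Gcsh, Agt, Agtr2, Alppl2, Akp3, Cplx3, Cplx4, Snap25) and the markers singled out were chosen after their values were seen. Vamp7 was not matched and is not analysed here. A few genes that the rule names are not reported here.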

Additional observations from a re-analysis of the deposited data

Results flagged for a closer look

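The value of Enpep in Pax5 KO library 1 stood apart from the rest of its group. It had 12 reads, against 0 in each of the other 3 knockout libraries, so that the gap to the nearest value was the whole range of the group (ratio of gap to range 1, past Dixon's limit for 4 libraries).

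Gldc in P80R B-ALL stood apart in the other direction. Recipient 1301 had 0 reads and the other 3 leukaemias had 2 reads each (ratio 0.94 on the log2 scale), a difference that is within counting error at this depth. In all, 18 groups of 4 values were examined and 2 passed the limit. The limit's chance rate of about 1 in 20 assumes continuous values and does not hold for these 2 groups, which lie near 0 reads.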

How the results depend on the processing

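No difference of the 5 genes changed sign under any alternative that gave a value. For Enpep and Alpl in P80R B-ALL minus Pax5 KO, only 2 alternatives gave a value, and neither could alter the difference. On leaving out 1 library, the log2 difference of P80R B-ALL minus Pax5 KO, given without a test, ran from -7.87 to -6.84 for Vat1l and from -3.55 to -2.92 for Gldc. For Cplx2 it ran from 1.98 to 3.22 over the 5 refits where the gene passed the filter. Those left out recipient 1308 or a Pax5 KO library, and leaving out any other recipient gave no value. The number of genes called was 3232 to 5366 for P80R B-ALL against Pax5 KO, 3581 to 5422 for P80R B-ALL against Pax5 WT and 7163 to 8032 for Pax5 KO against Pax5 WT when 1 library was left out. It fell to 4193 for Pax5 KO against Pax5 WT with all 12 libraries in the fit, against 7684 with 8; that fit takes its spread from the leukaemias too. In it the list counts for Pax5 KO over Pax5 WT were 4 higher and 2 lower for exocytosis, 1 and 4 for glycine, and 3 higher for phosphate genes. In Pax5 KO against Pax5 WT, libraries with the same number did not pair (correlations of -0.005 to 0.092, 1 of 4 best with its own number), and a replicate block gave 7776 calls. No paired analysis was possible for the leukaemias because recipients share no number with the other groups. Among single genes and list counts, 128 values were no longer past the threshold in an alternative and 119 counts or levels moved, and none reversed. Values under about 10 reads are limited by depth.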
